A study of Brassica napus with 8 samples.

Results

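The response of *MINELESS* seedlings to *M. brassicae* feeding was compared with that of wild-type seedlings of *B. napus* cv. Westar on 8 dual-colour oligonucleotide arrays, 4 for each genotype. The comparison covered 1747 of the 34992 probes in the deposited table, namely those with values on at least 3 arrays of both genotypes, out of 8409 probes with a value on any array. Seedlings of both genotypes were 6-7 days old. Cabbage moth larvae 10 days old, reared beforehand on the same genotype, fed on them for 24 h, while caged controls of that genotype received no larvae. A replica pooled 4 pots of control seedlings or 6 pots of challenged seedlings, with 4 seedlings in a pot. *MINELESS* is a transgenic line in which an RNase, expressed from a myrosinase promoter during seed development, kills the myrosin cells, and both its control and its challenged seedlings carry the transgene. In each genotype, replicas 1 and 2 carried the challenged RNA in Cy5 and replicas 3 and 4 in Cy3.

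In the Brassicaceae, glucosinolates are stored apart from myrosinase, the enzyme that hydrolyses them and that resides in myrosin cells. Chewing brings both together, and isothiocyanates, nitriles and other toxic or repellent products are formed. Feeding also raises jasmonic acid, a hormone that controls many wound and defence genes, among them those of indole glucosinolate synthesis. The arrays compare the transcript response to feeding with and without these cells. In separate feeding experiments, the authors report that larvae grew less and ate less on *MINELESS* seedlings. The challenge may therefore have been unequal between the genotypes. Its part in any difference was not tested.

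Each value is a log2 ratio of challenged over control seedlings of 1 genotype. A difference between the genotypes, written throughout as *MINELESS* minus wild-type, compares how strongly a transcript responded. It is not a comparison of levels, since no array held RNA of both genotypes, and the loss of myrosin cells itself could not be checked from these ratios. Whole above-ground tissue was measured, in which fewer cells of a type and less RNA per cell cannot be told apart. The oligonucleotides were designed for *Arabidopsis*. No table used here pairs the probes with genes, so no probe is given a gene, a position or a function. The authors list log2 values of selected genes, but probes were not matched to genes by value.

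The ratios likely run as challenged over control. Over the 1056 probes that no array lacked, the 16 pairs of arrays of opposite dye orientation correlated at 0.578 to 0.872 across probes, so the values had already been turned one way. For *MINELESS* replicas 3 and 4, part of the sample description names both channels as challenged, and the channel names were followed. The arrays differed in spread and in completeness. The SD over these probes was 0.871 on wild-type replica 4, while it ranged from 0.573 to 0.649 for the rest of that genotype and from 0.494 to 0.578 in *MINELESS*. Of the tested probes, *MINELESS* replicas 2 and 3 lacked a value on 255 and 331, and no other array lacked more than 95.

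A small number of probes were called as responding differently in the genotypes, and 10 of them rose in both and rose less in *MINELESS*. The difference had a median of -0.00425 over the 1747 probes, with quartiles of -0.18 and 0.16. A total of 277 probes, 15.9%, differed by more than 0.4, with 156 lower and 121 higher in *MINELESS*. In the limma contrast, 18 probes met an adjusted *P* of 0.05 with a log2 difference beyond 0.4, which is 1.03% of those tested. Of these, 11 were lower (0.630%) and 7 higher (0.401%) in *MINELESS*. After scaling all arrays to a common spread, 5 were lower and 10 higher, and 11 of the original 18 were still called. At an unadjusted *P* under 0.05 there were 190 probes (10.9%), 101 lower (5.78%) and 89 higher (5.09%).

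**Figure D1:**
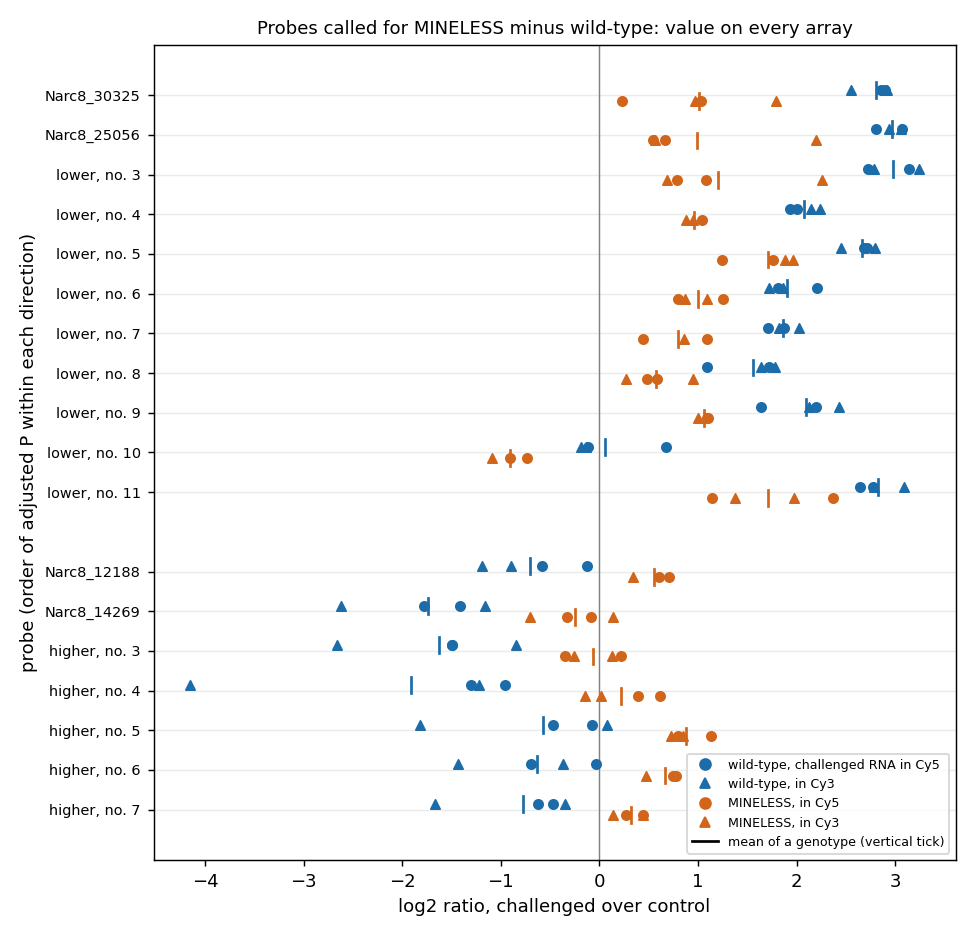
Log2 ratio of challenged over control on every array for the 18 probes called for the difference, 11 lower and 7 higher in *MINELESS*, in the order of their adjusted *P*. Blue is wild-type and orange *MINELESS*, circles and triangles are arrays with challenged RNA in Cy5 and in Cy3, and vertical ticks are means; on every probe the genotypes do not overlap.

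Among the 11 probes called lower, 10 rose in both genotypes and 1 fell in *MINELESS*. For the 10, every array of both genotypes had a ratio above 0. All of them were called as risen in wild-type, where 11.8% of the tested probes were called higher, and in *MINELESS*, where 8.36% were. Selection for a lower difference on these arrays itself favours a high wild-type ratio, so the wild-type calls only describe the probes. The log2 ratio of *MINELESS* amounted to between 33.5% and 64.3% of that of wild-type (median 44.6%). The same selection favours a low share, so this too only describes the probes. The log2 differences ran from -1.97 to -0.90. Over all 22 tested probes with a mean response above 2, called or not, the median log2 ratio was 2.84 in wild-type and 2.22 in *MINELESS*.

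The first of the 10 by adjusted *P*, Narc8_30325, had log2 ratios of 2.85, 2.89, 2.55 and 2.92 on wild-type replicas 1 to 4. Its ratios on *MINELESS* replicas 1 to 4 were 0.23, 1.03, 0.97 and 1.80. The highest *MINELESS* array thus stayed 0.754 below the lowest wild-type array. The means were 2.80 ± 0.17 (SD, n = 4) in wild-type and 1.01 ± 0.64 (SD, n = 4) in *MINELESS*. The difference was -1.80, with a standard error of 0.26, a 95% confidence interval from -2.34 to -1.25 and an adjusted *P* of 0.00543 in limma. On a linear scale the challenged-to-control ratio was 3.47 times higher in wild-type.

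Narc8_25056 had the widest difference among the probes called lower. Its log2 ratios were 2.81, 3.07, 3.06 and 2.94 in wild-type and 0.67, 0.55, 0.57 and 2.196 in *MINELESS*, replicas 1 to 4. The first 3 *MINELESS* arrays lay close together, and replica 4 was far nearer to wild-type. The difference was -1.97 with a 95% confidence interval from -2.59 to -1.36 (adjusted *P* 0.00543, limma). Without *MINELESS* replica 4 it was -2.37.

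The next probe had a similar course. Wild-type arrays read 2.73, 3.14, 3.24 and 2.79, and *MINELESS* arrays 0.79, 1.08, 0.69 and 2.26. On all of these first 3 probes *MINELESS* replica 4 was the highest array of its genotype, without reaching the lowest wild-type array. The difference was -1.77 (95% interval -2.38 to -1.17, adjusted *P* 0.0104, limma), and -2.13 without *MINELESS* replica 4.

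The fourth probe combined a smaller difference with replicas that lay close together in both genotypes. It had log2 ratios of 2.00, 1.93, 2.15 and 2.24 in wild-type. In *MINELESS* it had 1.04, 0.95 and 0.88 on replicas 1, 3 and 4 and no value on replica 2. The gap between the nearest arrays of the genotypes, 0.891, was the largest of all 18 probes. The difference was -1.14 with a standard error of 0.19 (95% interval -1.55 to -0.72, adjusted *P* 0.0182, limma).

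The fifth and the eleventh probe had the highest *MINELESS* means of the 11, and still rose less there than in wild-type. The fifth had 2.71, 2.69, 2.45 and 2.79 in wild-type and 1.76, 1.24, 1.97 and 1.88 in *MINELESS*. The eleventh had 2.78, 2.64, 3.09 and 2.79 in wild-type and 1.14, 2.37, 1.98 and 1.38 in *MINELESS*. *MINELESS* replica 2 was the lowest array of its genotype on the fifth and the highest on the eleventh, so it lowered 1 mean and raised the other. The differences were -0.95 (95% interval -1.36 to -0.53) and -1.11 (95% interval -1.64 to -0.58), with adjusted *P* values of 0.0387 and 0.0497 from limma. Without *MINELESS* replica 2 they were -0.80 and -1.38.

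The sixth to ninth probes had wild-type means between 1.557 and 2.0975. On the sixth, wild-type arrays read 2.21, 1.81, 1.87 and 1.72, and *MINELESS* arrays 1.25, 0.80, 0.87 and 1.09. The eighth came closest to overlapping, with 1.09 on wild-type replica 1 against 0.95 on *MINELESS* replica 4, a gap of 0.139. The differences of these probes were -0.90, -1.04, -0.99 and -1.0045 (adjusted *P* from 0.0387 to 0.0467, limma).

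The tenth probe stood apart from the other 10, since it did not rise after feeding. Its log2 ratios were 0.68, -0.12, -0.18 and -0.14 in wild-type and -0.73, -0.91 and -1.09 on *MINELESS* replicas 1, 2 and 4. Wild-type seedlings thus showed no called change (0.06, adjusted *P* 0.811, limma). *MINELESS* seedlings showed a fall, with an estimate of -0.97 and an adjusted *P* of 0.00125 (limma), where 2.29% of the tested probes were called lower. The difference was -1.03 (95% interval -1.51 to -0.55, adjusted *P* 0.0467, limma), and -0.82 without wild-type replica 1, the array that lay above 0.

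The 7 probes called higher in *MINELESS* were mostly transcripts that fell in wild-type seedlings. Of the 7, 6 were called as fallen in wild-type, where 6.93% of the tested probes were, and none was called as fallen in *MINELESS*. Selection for a higher difference on these arrays itself favours a low wild-type ratio, so this only describes the probes. The *MINELESS* estimate was above 0 for 5 of them, and for 4 every *MINELESS* array was above 0. The log2 differences ran from 1.10075 to 2.128. A transcript that falls less and one that turns from a fall to a rise give the same sign here.

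Narc8_12188, first of the 7 by adjusted *P*, had log2 ratios of -0.58, -0.13, -1.19 and -0.90 in wild-type. Its *MINELESS* ratios were 0.71, 0.60 and 0.34 on replicas 1, 2 and 4. All wild-type arrays were below 0 and all *MINELESS* arrays above it. The wild-type fall was called (-0.70, adjusted *P* 0.00137, limma), and the *MINELESS* estimate of 0.46 was not (adjusted *P* 0.0866, limma). The difference was 1.16, with a standard error of 0.21, a 95% confidence interval from 0.71 to 1.61 and an adjusted *P* of 0.0265 in limma.

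Narc8_14269 fell strongly in wild-type, to -1.42, -1.78, -1.16 and -2.62 on replicas 1 to 4. In *MINELESS* it read -0.33, -0.09, 0.14 and -0.70. The *MINELESS* arrays lay on both sides of 0, and the lowest of them was 0.457 above the highest wild-type array. The difference was 1.498 (95% interval 0.896 to 2.099, adjusted *P* 0.0274, limma), a challenged-to-control ratio 2.82 times higher in *MINELESS*.

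The third probe had the same form. It read -1.498, -1.496, -0.841 and -2.659 in wild-type and -0.35, 0.22, 0.13 and -0.26 in *MINELESS*. The fourth had the widest difference of all 18 probes, 2.13 with a 95% confidence interval from 1.19 to 3.07. It rested in size, not in direction, on wild-type replica 4, which read -4.15 where the others of its genotype read -0.95, -1.30 and -1.22. Without that array the difference was 1.44 for the fourth probe and 1.17 for the third, against 1.56 with it.

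The fifth probe of the 7 was the only one called as risen in *MINELESS*. Its log2 ratios were -0.47, -0.08, 0.08 and -1.82 in wild-type and 0.80, 1.13, 0.73 and 0.85 in *MINELESS*. The *MINELESS* arrays were close together, at 0.88 ± 0.18 (SD, n = 4), while wild-type replica 4 lay far below the other wild-type arrays. The rise in *MINELESS* had an adjusted *P* of 0.0148 and the wild-type estimate of -0.57 one of 0.0745 (limma). The difference was 1.45 (95% interval 0.79 to 2.11, adjusted *P* 0.0433, limma), and 1.03 without wild-type replica 4.

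On the sixth and seventh probes the *MINELESS* arrays again lay above 0 and the wild-type arrays below it. The sixth read -0.69, -0.03, -0.37 and -1.43 in wild-type and 0.75, 0.78 and 0.48 on *MINELESS* replicas 1, 2 and 4. The seventh read -0.47, -0.62, -0.35 and -1.67 in wild-type and 0.45, 0.27, 0.14 and 0.45 in *MINELESS*. Wild-type replica 4 was the lowest wild-type array on 6 of the 7 probes called higher, all but Narc8_12188. Its part in the differences is given by their values without it, which stayed between 0.80 and 1.44 for all 7, and all 18 probes were still called in that fit, with 24 called in all.

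**Figure D2:**
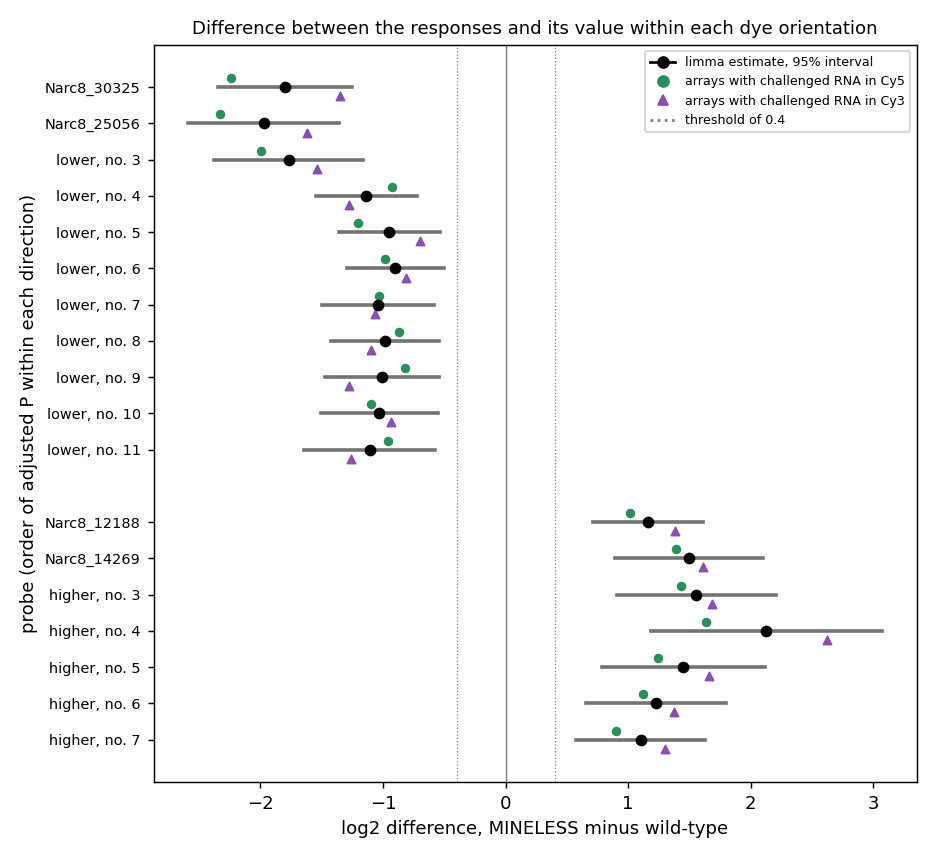
Log2 difference, *MINELESS* minus wild-type, of the 18 probes called (black, limma estimate; grey bars, 95% confidence interval), with the difference among arrays with challenged RNA in Cy5 (green circles) and in Cy3 (purple triangles). All 18 have the same sign in both dye orientations, as probes without overlap must, and the 7 called higher have the larger value in Cy3.

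The difference had the same direction in both dye orientations for all 18 probes. This had to be so, since the genotypes did not overlap on any of them, and it is no check of the dye. Among the 11 called lower, the larger value came from the Cy5 arrays, replicas 1 and 2, on 6 probes and from the Cy3 arrays on the others. For Narc8_30325 it was -2.24 in Cy5 and -1.35 in Cy3. Among the 7 called higher, none had the larger value in Cy5. The widest gap was on the fourth of them, with 1.63 in Cy5 and 2.62 in Cy3, the orientation that holds wild-type replica 4. The dye term passed an adjusted *P* of 0.05 in limma on 0 of the tested probes, and 2 of the 18, Narc8_12188 and the fourth probe called higher, passed it unadjusted.

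The ranges of the genotypes did not meet on any of the 18 probes. Over all tested probes this held for 149 (8.53%), with *MINELESS* below on 71 (4.06%) and above on 78 (4.46%). The calls depended on single arrays. Leaving out wild-type replica 1, 2 or 3 gave 3, 0 or 43 calls, and leaving out *MINELESS* replica 1, 2, 3 or 4 gave 1, 5, 0 or 5. In the fits with 0 calls, 147 and 139 probes had an unadjusted *P* under 0.05 (limma), and a fit without moderation of variances likewise gave 0, with 152. All 18 differences kept their sign in every fit without 1 array, which was fixed in advance, since the genotypes did not overlap on these probes. Narc8_30325 was called in 6 of the 8 fits, Narc8_25056 and the third probe called lower in 5, the fourth called lower and Narc8_14269 in 3, and the other 13 in 2.

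Just inside the threshold lay the eleventh probe called lower and the seventh called higher, both with an adjusted *P* of 0.0497. Just outside it, 6 probes had adjusted *P* values from 0.0559 to 0.067 (limma), with 4 higher and 2 lower in *MINELESS*. The nearest read -0.21, 0.19, -0.16 and -0.83 in wild-type and 0.70, 0.90, 0.53 and 0.29 in *MINELESS*, a difference of 0.86. The second was of a kind absent among the 18, since it rose in both genotypes and rose more in *MINELESS*. It had 0.38, 0.88, 0.92 and 0.53 in wild-type and 1.69, 1.36 and 2.04 on *MINELESS* replicas 1, 3 and 4, a difference of 1.01 (95% interval 0.508 to 1.505, adjusted *P* 0.0632, limma). The fourth rose in wild-type on every array, from 0.50 to 0.59, and read -0.26, -0.21, -0.66 and 0.10 in *MINELESS*. All 6 had arrays that did not overlap between the genotypes, and so cannot be told from the 18 by separation alone.

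The 2 strongest mean rises and the 2 strongest mean falls among probes called in both genotypes were not called for the difference. Of the 22 probes with a mean response above 2, 3 were called lower. The probe with the highest mean response among those called in both genotypes read 3.36, 3.77, 3.55 and 4.19 in wild-type and 3.47, 2.29, 2.93 and 3.31 in *MINELESS*. Its groups overlapped, and its difference was -0.72 (95% interval -1.25 to -0.18, adjusted *P* 0.238, limma). The second read 3.40, 3.87 and 3.82 on wild-type replicas 1, 2 and 4 and 2.38, 1.36, 2.52 and 3.75 in *MINELESS*, with a difference of -1.34 (95% interval -2.07 to -0.61, adjusted *P* 0.0837, limma). It was called in 3 of the 8 fits without 1 array, namely without wild-type replica 3, on which it has no value (-1.34), wild-type replica 4 (-1.77) or *MINELESS* replica 4 (-1.62), with adjusted *P* values of 0.0400, 0.0240 and 0.0223 (limma). Its adjusted *P* was 0.0359 with array weights, 2.23e-05 with replica 4 of both genotypes left out, and up to 0.631 under the other alternatives (scaled arrays, limma). At the other end, the probe with the strongest mean fall read -1.52, -1.91, -2.13 and -1.63 in wild-type and -1.12, -1.46, -1.37 and -1.79 in *MINELESS*. Its difference was 0.36 with a 95% interval from -0.06 to 0.78 (adjusted *P* 0.562, limma), and that of the second strongest was 0.35 with a 95% interval from -0.26 to 0.97.

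Across the tested probes the difference was graded with the size of the response, with smaller rises and smaller falls in *MINELESS*. Probes were placed by the mean log2 ratio of both genotypes, which counts each genotype equally. Among the 86 probes with a mean response above 1, 73 had a difference below 0 and 13 above 0. Among the 67 with a mean response below -0.5, 52 had a difference above 0 and 15 below 0. The probes are not replicates, and both quantities come from the same arrays, so these counts are given without a test.

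**Figure D3:**
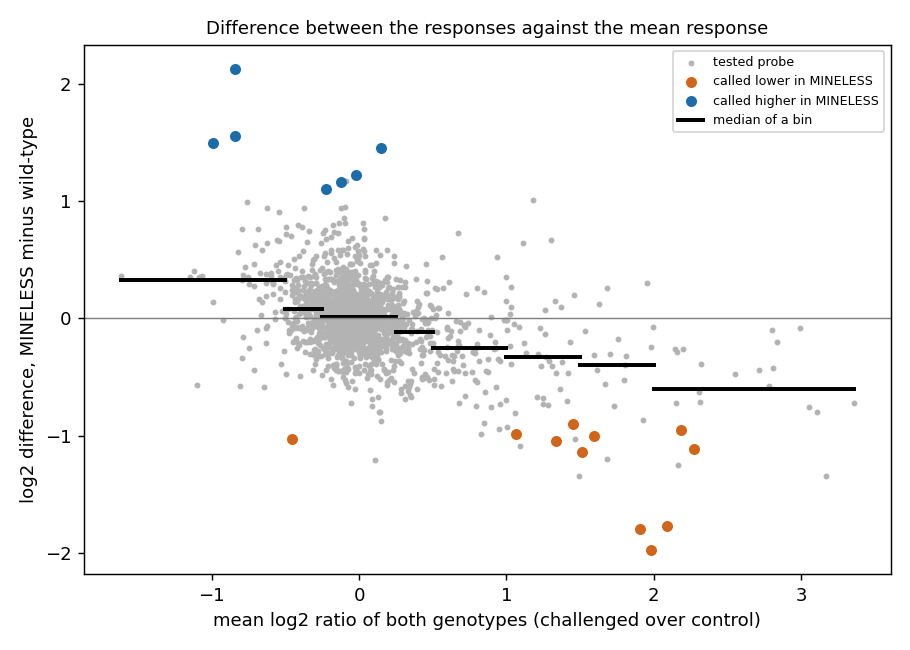
Log2 difference, *MINELESS* minus wild-type, against the mean log2 ratio of both genotypes, for the 1747 tested probes (grey), with the 11 probes called lower (orange) and the 7 called higher (blue). Black bars are bin medians, which run from 0.33 below a mean response of -0.5 to -0.60 above 2.

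By bins of mean response, the median difference was 0.33 below -0.5 (67 probes), 0.08 from -0.5 to -0.25 (217), 0.01 from -0.25 to 0.25 (1161), -0.11 from 0.25 to 0.5 (124) and -0.25 from 0.5 to 1 (92). Above that it was -0.33 from 1 to 1.5 (43 probes), -0.40 from 1.5 to 2 (21) and -0.60 above 2 (22). All 22 probes of the last bin had a difference below 0, from -1.77 to -0.08. In both dye orientations the median was above 0 for mean responses below -0.5 (0.25 in Cy5, 0.34 in Cy3) and below 0 from 0.5 upward. From 0.5 upward it widened at every step only in Cy3, with -0.25, -0.41, -0.58 and -0.82. In Cy5 these medians were -0.26, -0.27, -0.37 and -0.29.

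The size of this grading moved with the spread of the arrays. After scaling all arrays to a common spread, the median above 2 was -0.19, and 63 of 88 probes with a mean response above 1 lay below 0, with a median of -0.18. Without wild-type replica 4, the array of widest spread, the median above 2 was -0.40, and 67 of 86 probes above 1 lay below 0. The median below -0.5 was 0.25 after scaling and 0.27 without that array. A wider spread on the wild-type side and a stronger response of those seedlings cannot be told apart by these values.

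Array by array, the classes of probes with values on all arrays gave the same order. That is no separate check, since the same unscaled values formed the classes. Over the 33 probes with a mean response above 1.5, the median log2 ratio was 2.18, 2.43, 2.26 and 2.79 on wild-type replicas 1 to 4. On *MINELESS* replicas 1 to 4 it was 1.62, 2.08, 1.80 and 1.87. All *MINELESS* arrays lay below all wild-type arrays, the nearest pair being wild-type replica 1 and *MINELESS* replica 2. Over the 30 probes from 1 to 1.5 the wild-type medians ran from 1.17 to 1.53, and those of *MINELESS* from 0.93 to 1.11.

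For weaker responses the arrays of the genotypes met. Over the 50 probes from 0.5 to 1, wild-type replica 1 had a median of 0.54, below the 0.55 to 0.68 of the *MINELESS* arrays, while the other wild-type arrays had 0.75 to 1.00. Over the 44 probes below -0.5, wild-type medians were -0.61, -0.86, -0.88 and -1.08 and *MINELESS* medians -0.36, -0.55, -0.54 and -0.59. These did not overlap, although wild-type replica 1 and *MINELESS* replica 4 were close. Over the 691 probes between -0.25 and 0.25 all 8 medians lay between -0.06 and 0.01.

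**Figure D4:**
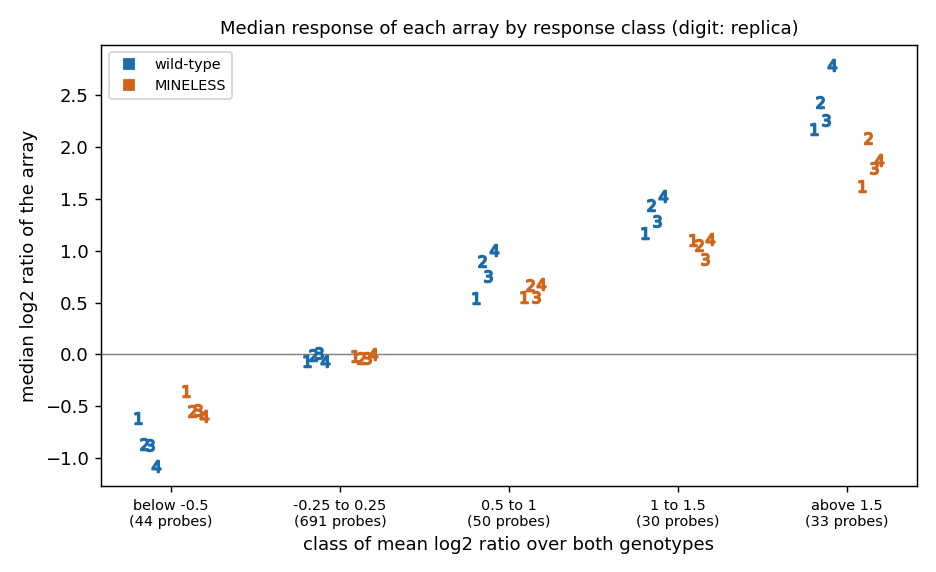
Median log2 ratio of each array, challenged over control, over probes grouped by their mean log2 ratio in both genotypes; digits are replicas, blue wild-type and orange *MINELESS*. Above 1.5 the wild-type medians run from 2.18 to 2.79 and the *MINELESS* medians from 1.62 to 2.08.

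The share of probes past an unadjusted *P* of 0.05 for the difference, 10.9% over all probes, was higher among stronger responses. Above a mean response of 1, 29 of the 86 probes passed with a lower and 3 with a higher value in *MINELESS*. Below -0.5, 17 of 67 passed with a higher and 2 with a lower value. Between -0.25 and 0.25, 32 of 1161 were lower and 51 higher. The calls at the adjusted threshold were placed differently in each direction. All but 1 of the 11 probes called lower had a mean response above 1. Of the 7 called higher, 4 had a mean response between -0.25 and 0.25, with estimates of opposite sign in the genotypes.

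A probe that was not called need not have responded alike in both genotypes. The standard error of the difference had a median of 0.21, and the 95% confidence interval reached a median of 0.45 to either side. The interval lay wholly within 0.5 of 0 for 328 probes (18.8%) and wholly within 1 of 0 for 1572 (89.98%). Among the 86 probes with a mean response above 1 only 1 had an interval within 0.5 of 0, while the intervals of 54 included 0. Among the 155 probes called in both genotypes, all in the same direction in both, 10 were called for the difference, 9 had an interval within 0.5 of 0 and 103 within 1. No probe was called in opposite directions in the genotypes.

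At least 3 values were present for 6520 probes in wild-type and 1989 in *MINELESS*. Of the 1989, 242 had fewer than 3 wild-type values and were not tested. Of the 6520, 2771 had no *MINELESS* value and 2002 had exactly 2, so for these the difference was not tested here.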

How the data were processed

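The authors hybridized challenged and control RNA of each genotype together on arrays printed with *Arabidopsis* oligonucleotides. Per the labels and methods they used R 2.10.1 and limma, log-transformed the data, normalized within arrays by print tip-loess without background subtraction, averaged replicate spots and removed genes with a strong dye bias. They deposited log2 ratios. Neither the threshold for dye bias nor the rule for empty cells was found in those sources. No further normalization was applied.

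The difference was a coefficient of a linear model in limma 3.58.1 (R 4.3.3), with a dye term for each probe and variances moderated by empirical Bayes over 9.56 prior degrees of freedom. It was fitted directly, since contrasts formed after the fit are approximate where values are missing. Replicas are biological per the labels. *P* values were adjusted by Benjamini-Hochberg over all 1747 probes. Probes were called at 0.05 with a log2 difference beyond 0.4, or 0.5 for the response of a genotype. The fit was tested on simulated data with 200 changed probes. The number of arrays limits the precision.

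Described probes are all those called, the 6 nearest not called, and the 2 with the strongest mean rise and the 2 with the strongest mean fall called in both genotypes. Identifiers are printed for the first 2 in each direction only, since the probes are not paired with genes. Lists of jasmonic acid, tryptophan, glucosinolate and photosynthesis genes and myrosin cell markers could not be counted for the same reason. The probes and lists were chosen with earlier results of these data known. Alternatives changed the dye term, scaling, weights, filters, thresholds and variance moderation or left out arrays, 1 of them chosen after seeing the data.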

Additional observations from a re-analysis of the deposited data

Results flagged for a closer look

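Dixon's ratio was computed for 51 groups of 4 arrays, and in 4 of them a single array lay apart beyond its 95% critical value, which chance passes in about 1 of 20 groups. In Narc8_25056 it was *MINELESS* replica 4, at a log2 ratio of 2.196. In the tenth probe called lower it was wild-type replica 1, at 0.677, and in the fourth called higher wild-type replica 4, at -4.152. Wild-type replica 4 also held 4551 values, where the other wild-type arrays held 6726 to 7119.

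A direct test of the difference on all 8 arrays called 18 probes, a count that ran from 0 to 43 in fits without 1 array. The log2 differences, *MINELESS* minus wild-type, were -1.80 for Narc8_30325, -1.97 for Narc8_25056, 1.16 for Narc8_12188 and 1.498 for Narc8_14269.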

How the results depend on the processing

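All 18 differences kept their direction under every alternative in which the probe was tested, while their calls did not. Where arrays were only left out the direction could not turn, since the genotypes did not overlap on any of the 18. Over 300 values of the called probes under alternatives of arrays, dye term, scaling, weights or filters on values, 164 kept and 136 lost the call. Alternatives of threshold, moderation and dye-effect removal were not among the 300. The fit without replica 4 of both genotypes, chosen after seeing the data, was. Dropping the size threshold could not change the calls, since only these 18 probes passed the adjusted *P* at any size. Removing probes with a dye effect could not either, since 0 probes had one at an adjusted *P* under 0.05 (limma). The count of 18 calls (11 lower, 7 higher in *MINELESS*) was within 1.5 times of itself with no dye term (21), arrays centred (15) and robust moderation (17). It was 6 (4 lower, 2 higher) with a dye effect for each genotype, 30 (17, 13) with array weights, 9 (6, 3) among probes on all 8 arrays, where fewer were tested, and 4 (4, 0) with values on 2 arrays accepted. It was 2 (2, 0) at an adjusted *P* of 0.01, 41 (22, 19) at 0.1, 0 (0, 0) without moderation, with 152 at an unadjusted *P* under 0.05, and 2 (2, 0) when tested against 0.4 (treat). Scaled arrays gave 15 (5, 10) and a median of -0.19 above a mean response of 2. Leaving out replica 4 of both genotypes, chosen after seeing the data, gave 40 (24, 16), with all 18 among them. The cause of these changes was not tested. Without 1 array the count ran from 0 to 43 (lower 0 to 19, higher 0 to 24), the median above 2 from -0.71 to -0.40 and that below -0.5 from 0.24 to 0.35.

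Arrays of the genotypes that share a replica number were treated as unpaired. Their deviations correlated at -0.109 to 0.245, and so few pairs cannot exclude an effect shared by a number. A replicate block used instead of the dye term gave 49 calls (26 lower, 23 higher), and no array of wild-type deviated most like its own number. Signal over background was not used here, so dim probes could not be told from bright ones.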
